A study of Mus musculus with 8 samples.

Results

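Collagens, laminins and integrins are 3 gene families that build and read the extracellular matrix. Their members were taken as every gene whose symbol in the deposited files begins with Col, Lam, Itga or Itgb and ends in the numbers or letters of a collagen chain, a laminin α, β or γ chain, or an integrin α or β subunit. This gave 81 of 38991 genes, of which 80 are described, with 44 collagen chains, 10 laminin chains and 26 integrin subunits, and the rule itself reads only symbols. RNA was sequenced from 8 cultures of mouse embryonic stem cells (ESCs) of the Rex1GFPd2 line (129 strain), a single line that carries a green fluorescent reporter in the Rex1 locus. The study compared combinations of the cytokine LIF with CH, an inhibitor of the kinase GSK3 (CHIR99021, 3 µM), and PD, an inhibitor of the kinase MEK (PD0325901, 1 µM). All cultures shared their history, with 6 passages in 2i (CH and PD together) and then 5 passages in the final condition, to passage 11, in serum-free N2B27 medium on plates coated with gelatin, which is itself made from collagen. They were split every 3 days at 15000 cells per cm2. The 4 conditions had 2 cultures each: 2i+LIF held LIF, CH and PD, 2i lacked LIF, LIF+PD lacked CH, and CH+LIF lacked PD. Expression is given as FPKM, a measure of sequenced fragments that is divided by transcript length and by the size of the library, so that levels of different genes can be compared.

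Laminins are secreted trimers of an α, a β and a γ chain that assemble into the first sheet of a basement membrane. Type IV collagen, a trimer of chains such as those of Col4a1 and Col4a2, forms the second network of that membrane, and Col18a1 carries heparan sulphate chains in it. Integrins are cell surface dimers of an α and a β subunit that bind matrix outside the cell and the actin cytoskeleton inside it, and a subunit without a partner generally stays inside the cell. ESCs secrete laminin, and the early embryo forms its first basement membranes between the epiblast and the primitive endoderm.

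Replicates were close to each other over all genes. The 2 cultures of each condition had a Pearson correlation across genes of 0.974 to 0.983 on the log2 scale, and cultures of different conditions of 0.930 to 0.954. The relative depth was taken as the inverse of the commonest ratio of low values to those of replicate 1 of 2i+LIF, which was set to 1. It ranged from 0.499 in replicate 1 of 2i to 1.18. Between 17% and 22.8% of the genes used lay at the commonest ratio, so the estimate is rough. The 12 genes that define naive ESCs in a list used here, among them Pou5f1, Nanog, Sox2 and Zfp42, all exceeded an FPKM of 1, with summed levels of 4689 to 6512 FPKM. Pou5f1 and Dppa5a carried most of these sums, and single genes differed between conditions. Dppa3 was at 66.05 and 47.9 FPKM in 2i+LIF and 2.37 and 2.30 in CH+LIF. Klf4 was at 203 and 196 FPKM in 2i+LIF and 47.7 and 50.6 in 2i, whereas Fbxo15 was highest in LIF+PD, at 271.5 and 282 FPKM.

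Sequence upstream of 4 members and at the paired start of the type IV collagen genes is shown because the 2 laminin β chains and these collagens separate the conditions in the results that follow. Each is read 5′ to 3′ on the gene's own strand from RefSeq windows of build GRCm38.p6, the build (mm10) of the deposited values. Those of Col18a1, Lamb1 and Lamb2 end 1 base before an untranslated region in the GENCODE M21 annotation. The last base printed lies 127 bases before the RefSeq start for Lamb2, 60 for Lamb1, 19 for Col18a1 and 1 for Col5a3, so the stretches do not cover like regions. Capitals mark matches on either strand to the GC box GGGCGG, to the CCAAT box, to the TATA box TATAAA, to the STAT motif TTCNNNGAA, or to CTTTGAA or CTTTGAT or CTTTGTA or CTTTGTT (TCF/LEF), and no matches overlap in these 4 windows.
Lamb1, chr12:31265043-31265233, plus strand: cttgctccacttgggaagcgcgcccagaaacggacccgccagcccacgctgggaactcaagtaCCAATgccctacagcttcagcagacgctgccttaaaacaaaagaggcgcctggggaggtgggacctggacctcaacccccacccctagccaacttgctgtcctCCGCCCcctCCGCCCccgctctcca
Lamb2, chr9:108479612-108479735, plus strand: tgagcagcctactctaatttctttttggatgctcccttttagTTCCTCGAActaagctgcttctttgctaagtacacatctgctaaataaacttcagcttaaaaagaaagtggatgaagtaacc
Col18a1, chr10:77166549-77166780, minus strand: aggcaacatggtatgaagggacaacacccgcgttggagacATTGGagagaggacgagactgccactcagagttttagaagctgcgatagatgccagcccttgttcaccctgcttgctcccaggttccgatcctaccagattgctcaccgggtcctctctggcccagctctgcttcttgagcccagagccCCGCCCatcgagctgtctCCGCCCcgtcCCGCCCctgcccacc
Col5a3, chr9:20815068-20815317, minus strand: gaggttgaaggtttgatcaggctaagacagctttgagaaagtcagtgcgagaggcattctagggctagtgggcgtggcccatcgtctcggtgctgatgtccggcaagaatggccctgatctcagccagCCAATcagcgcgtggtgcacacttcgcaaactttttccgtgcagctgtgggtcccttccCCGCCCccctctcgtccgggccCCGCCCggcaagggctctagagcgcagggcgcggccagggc
Col4a1 and Col4a2 lie head to head on chromosome 8, Col4a2 on the plus and Col4a1 on the minus strand, and the annotated genes overlap by 22 bases. The overlap, read on the plus strand:
Col4a1 and Col4a2, chr8:11312805-11312826: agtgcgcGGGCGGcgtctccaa

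Windows of the 250 bases before a start were present for 58 of the 80 members (64 windows). A GC box was found in 31 of the 64 windows (48.4%), against 32.7% of all 32851 windows of the same length. CCAAT was found in 17 (26.6%, against 33.8% of all), TATAAA in 5 (7.81%, against 12.4%), a TCF/LEF sequence in 9 (14.1%, against 14.8%) and the STAT sequence in 4 (6.25%, against 7.02%). The median GC content was 58.6% in the members' windows and 52.4% in all windows. Of the 4 stretches printed, those of Lamb1 and Col5a3 hold 2 GC boxes each and that of Col18a1 holds 3, and all of these hold CCAAT on 1 strand, whereas that of Lamb2 holds the STAT sequence alone. Col18a1 has a second window, at another start, that holds 0 of these matches. It is not printed, since 241 of its 250 bases are annotated as untranslated. FPKM per gene does not tell which start was used. The overlap of Col4a1 and Col4a2 holds 1 GC box. These matches describe letters in a window and not binding.

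Of the 80 members, 28 were expressed, which here means that 2 or more cultures had an FPKM of 1 or above. These were 11 collagen chains, 5 laminin chains and 12 integrin subunits. An FPKM of at least 1 in all 8 cultures was found for 14 members, namely all 5 expressed laminin chains, 7 integrin subunits and the collagens Col18a1 and Col5a1. A further 47 members stayed below 1 in every culture, and 5 reached 1 in a single culture, with Itga1 the highest of them at 1.24 in replicate 2 of 2i. The collagens Col19a1, Col28a1 and Col3a1 and the integrins Itgad, Itgax and Itgb8 were listed at 0 in all cultures. Among the collagen classes, 4 of 11 fibrillar chains, 3 of 9 fibril-associated chains, 2 of 6 chains of the type IV network and 1 of 2 multiplexins were expressed, and 0 of 4 transmembrane collagens.

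The heat map of the expressed members shows how unevenly the levels were spread. Lamc1, the γ1 chain shared by most laminins, had the highest mean over all cultures with 114 FPKM and a range of 62.5 to 165 FPKM. It was followed by Col18a1 with a mean of 69.0 FPKM, Lama5 with 55.5, Itga6 with 46.2 and Itgb1 with 45.7 FPKM. Itgb5, Lama1, Lamb2, Itgav and Col4a1 completed the 10 highest, with means of 18.5 to 11.5 FPKM. Across the cultures the rank of a gene was not fixed. Col4a1 ranged from 0.917 to 42.9 FPKM, whereas Itgb1 ranged only from 36.7 to 53.5 FPKM. The summed level of the laminin chains was 251 and 272 FPKM in 2i+LIF, 147 and 144 in 2i, 243 and 276 in LIF+PD, and 158 and 170.0 in CH+LIF. Lamc1 was the largest part of each laminin sum. The summed level of the collagen chains was 45.4 and 40.02 FPKM in 2i+LIF and 43.8 and 42.7 in CH+LIF, but 154 and 159 in 2i and 184 and 182 in LIF+PD. Col18a1 alone made up 124 and 134 FPKM of the collagen sums in 2i and 95.0 and 85.3 in LIF+PD. The sums of the laminin chains in 2i and in CH+LIF thus lay below those of the other 2 conditions without overlap, and the collagen sums split the conditions in another way.

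**Figure D1:**
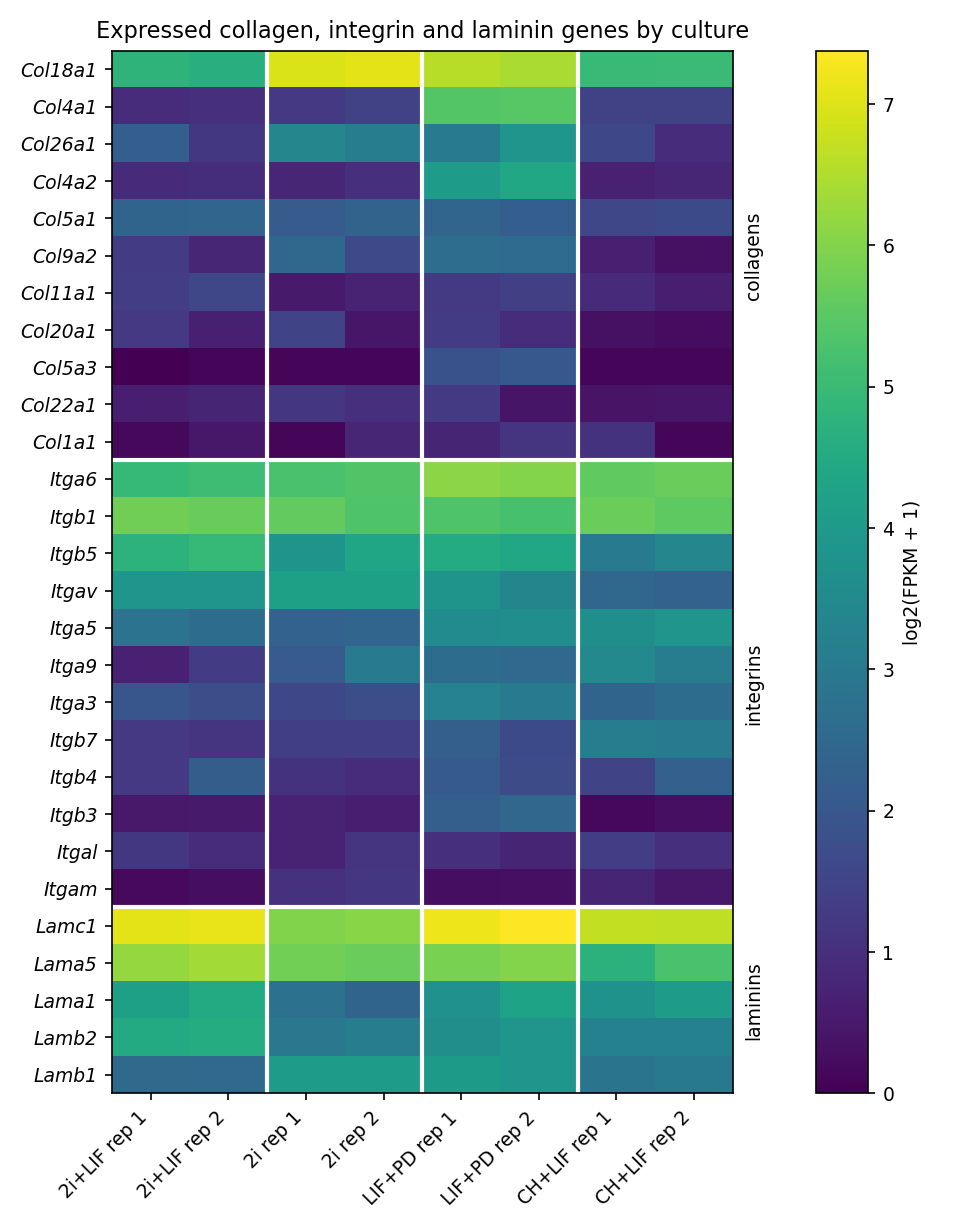
Colour gives the level of each of the 28 expressed members (rows, by family and mean level) as log2(FPKM + 1) in each of the 8 cultures (columns, 2 per condition). Lamc1 and Col18a1 form the brightest rows, and Col4a1 and Col4a2 are bright only in the LIF+PD cultures.

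To find which chains could be assembled, known complexes were scored by whether all of their chains were expressed. Of 24 integrin dimers, 8 had both subunits expressed, namely α3β1, α5β1, α6β1, α9β1, αvβ1, αvβ3, α6β4 and αvβ5. The β1 subunit was a partner in 5 of them and αv in 3. Both expressed laminin receptors (Itga3 and Itga6) and the fibronectin receptor subunit Itga5 therefore had Itgb1 as a partner in every culture. By contrast 0 of the 4 α subunits of collagen receptors (Itga1, Itga2, Itga10 and Itga11) were expressed. For αvβ3 the scarcer subunit was Itgb3 in all cultures, at 0.110 to 0.670 FPKM outside LIF+PD and 3.71 and 4.39 FPKM in LIF+PD. The expressed subunits Itgal, Itgam and Itgb7 had no complete partner. Itgb2, the partner of Itgal and Itgam, was at most 0.499 FPKM, and for Itgb7 the partners Itga4 and Itgae were at most 0.165 and 0.278 FPKM.

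Of 13 laminin trimers, 4 had all chains expressed, which were laminins 111, 121, 511 and 521. The other 9 each lacked at least 1 chain, since Lama2, Lama3, Lama4 and Lamc3 did not pass. The chain Lamb3 did not pass either. Of 13 collagen trimers with more than 1 kind of chain, only the α1/α2 trimer of type IV collagen had all chains expressed, and its lowest chain, Col4a2, stood at 16.1 and 19.9 FPKM in LIF+PD against 0.598 to 1.02 FPKM in the other 6 cultures. Col1a1, Col5a1, Col5a3, Col9a2 and Col11a1 each lacked an expressed partner in the trimers scored, as Col5a1, whose partner Col5a2 was at most 0.543 FPKM. The expressed chains Col18a1, Col20a1, Col22a1 and Col26a1 are in none of these trimers, and trimers of 1 kind of chain were not scored. The scores describe transcripts, and assembly of the proteins was not measured.

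The 28 expressed members were tested between the conditions with limma, fitted on the 12927 genes that passed the same filter, and called at a Benjamini-Hochberg adjusted p below 0.05. Differences are given on the scale of log2(FPKM + 1), which understates changes of weakly expressed genes, with a standard error (SE), and folds are ratios of mean FPKM. In 2i against 2i+LIF, 10 of the 28 were called (5 higher and 5 lower), where 18.6% of all tested genes were called (9.77% higher and 8.86% lower). In LIF+PD against 2i+LIF, 15 were called (13 higher and 2 lower), where the share of all genes was 25.2% (14.8% higher and 10.4% lower). The 13 include Col4a2, Col5a3 and Itgb3, which needed LIF+PD to pass the filter. In CH+LIF against 2i+LIF, 14 were called (7 higher and 7 lower), where 25.4% of all genes were called (12.2% higher and 13.3% lower). With values rescaled to a common sum per culture (TPM) and the filter applied at that scale, which 34 members passed, 14 were called there as well, 9 higher and 5 lower. The median difference of the tested members was 0.05, 0.40 and -0.13 in these 3 comparisons, and that of all tested genes 0.04, 0.03 and 0.01.

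Between the 3 conditions that each lacked 1 component, LIF+PD and 2i differed in 14 members (11 higher and 3 lower in LIF+PD), where 25.1% of all genes were called (14.0% higher and 11.1% lower). CH+LIF and 2i differed in 14 (6 higher and 8 lower in CH+LIF, or 7 and 5 of the 34 members tested in TPM), where 23.9% were called (10.6% higher and 13.3% lower). CH+LIF and LIF+PD differed in 17 members, of which only Itgb7 was higher in CH+LIF and 16 were lower, where 30.4% of all genes were called (12.6% higher and 17.8% lower). Over the 4 conditions together, 22 of the 28 members passed the F test, where 46.8% of all genes did. These were 8 of 11 collagens, all 5 laminins and 9 of 12 integrins. The members that did not pass were Col1a1, Col20a1, Col22a1, Itgal, Itgb4 and Itgb1, the last with an adjusted p of 0.069. The comparisons share cultures and are not independent of each other. Col5a3 and Itgb3 passed the filter only through LIF+PD and Itgam only through 2i. Col4a2 needed LIF+PD to pass, since outside it only replicate 2 of 2i, at 1.02 FPKM, reached 1. Col4a2, Col5a3 and Itgb3 are counted as higher in LIF+PD in each of its comparisons. Itgam is counted as higher in 2i than in 2i+LIF and in LIF+PD. All of them are also counted in the F test. The counts of these members follow in part from the filter and carry no weight of their own. The labels do not say whether replicates were separate from the start, and p-values measure the spread between these cultures.

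**Figure D2:**
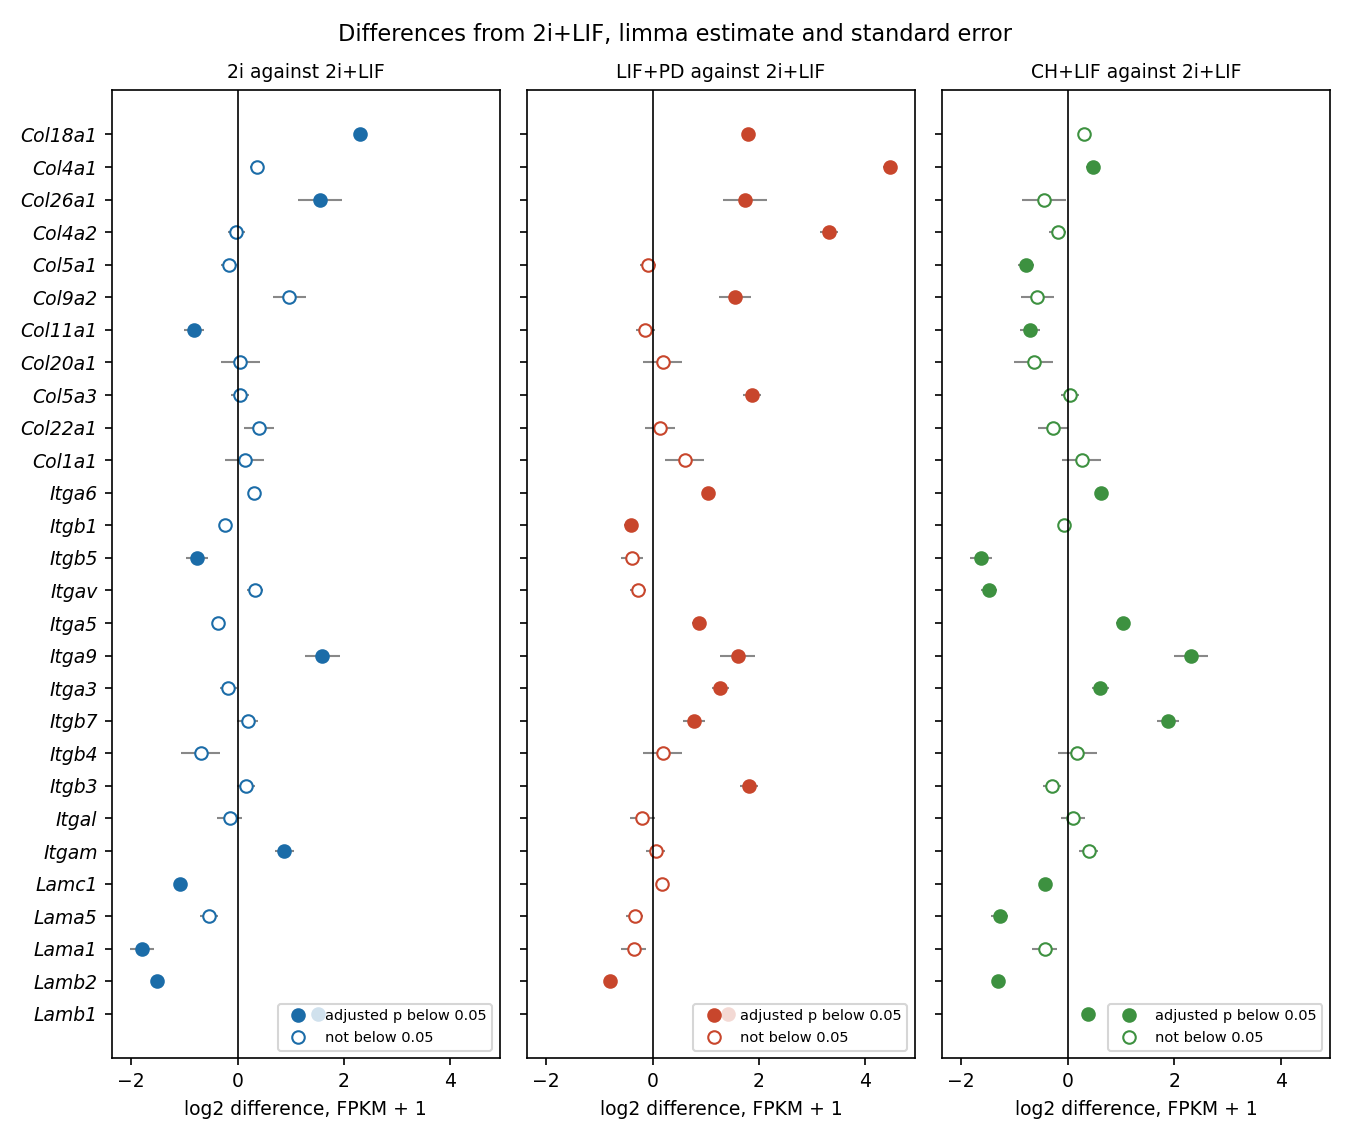
Points give the limma difference in log2(FPKM + 1) from 2i+LIF for each expressed member in 2i, LIF+PD and CH+LIF, bars give 1 standard error, and filled points have an adjusted p below 0.05. Col4a1 and Col4a2 lie farthest to the right, in LIF+PD, at 4.46 and 3.31. The filled points of Col4a2, Col5a3 and Itgb3 in LIF+PD and of Itgam in 2i carry no weight, since these genes needed those conditions to pass the filter.

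Of the laminin chains, Lama1 and Lamc1 were lower in 2i than in each of the other conditions, and the β1 and β2 chains went in opposite directions between 2i+LIF and 2i. Lamb1 (ENSMUSG00000002900), which encodes the β1 chain, stood at 4.88 and 4.73 FPKM in 2i+LIF and at 6.15 and 6.98 FPKM in CH+LIF. It reached 15.7 and 15.5 FPKM in 2i and 15.2 and 13.8 FPKM in LIF+PD. Cultures of 2i and LIF+PD thus lay above all those of 2i+LIF and CH+LIF. Lamb1 was 3.26-fold higher in 2i than in 2i+LIF (log2 difference 1.52, SE 0.11, adjusted p = 0.00027) and 3.03-fold higher in LIF+PD (1.42, SE 0.11, adjusted p = 0.00032). The rise in CH+LIF over 2i+LIF was 1.37-fold (adjusted p = 0.042) and was lost in 12 of 17 alternative settings. In bulk RNA, a change in the number of cells that express a gene and a change in the RNA per cell cannot be told apart.

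Lamb2 (ENSMUSG00000052911), which encodes the β2 chain, was highest in 2i+LIF, at 21.7 and 22.9 FPKM. It measured 6.80 and 7.61 FPKM in 2i, 8.47 and 8.41 FPKM in CH+LIF, and 11.5 and 13.4 FPKM in LIF+PD. All 6 cultures that lacked a component were therefore below both 2i+LIF cultures. Lamb2 fell by 1.51 on the log2 scale in 2i (SE 0.11, adjusted p = 0.00033), by 1.30 in CH+LIF (adjusted p = 0.0008) and by 0.79 in LIF+PD (adjusted p = 0.0032). The ratio of Lamb1 to Lamb2 was 0.224 and 0.206 in 2i+LIF, 0.726 and 0.830 in CH+LIF, 1.32 and 1.03 in LIF+PD, and 2.31 and 2.04 in 2i. The β2 chain was thus the more abundant transcript in 2i+LIF and CH+LIF, and the β1 chain in 2i and LIF+PD.

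Of the α chains, Lama1 belongs to laminin 111, the laminin of the earliest embryonic membranes, and Lama5 to laminins 511 and 521. Lama1 stood at 17.4 and 22.0 FPKM in 2i+LIF, 12.6 and 16.1 in CH+LIF, 12.3 and 18.5 in LIF+PD, and 5.79 and 4.18 in 2i. Only the 2i cultures lay apart from the rest. Lama1 was 3.95-fold lower in 2i than in 2i+LIF (log2 difference -1.79, SE 0.23, adjusted p = 0.0028), 3.09-fold lower than in LIF+PD (adjusted p = 0.0048) and 2.88-fold lower than in CH+LIF (adjusted p = 0.0073). Lama5 measured 72.7 and 81.2 FPKM in 2i+LIF, 58.1 and 63.3 in LIF+PD, 55.0 and 50.4 in 2i, and 26.0 and 37.3 in CH+LIF. Here the CH+LIF cultures were the lowest. Lama5 was 2.43-fold lower in CH+LIF than in 2i+LIF (log2 difference -1.28, SE 0.16, adjusted p = 0.0026) and 1.92-fold lower than in LIF+PD (adjusted p = 0.0055). Against 2i, the call (adjusted p = 0.018) was lost without replicate 1 of 2i, without replicate 1 of CH+LIF and with TPM scaling, and the difference of -0.74 ranged from -0.99 to -0.49 when single cultures were left out. The level of Lama5 was 9.50 and 12.1 times that of Lama1 in 2i, against 2.06 to 4.72 times elsewhere.

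Lamc1, the γ1 chain of all 4 complete trimers, was lowest in 2i as well. It measured 134 and 140 FPKM in 2i+LIF, 144 and 165 in LIF+PD, 104 and 100 in CH+LIF, and 62.5 and 65.5 in 2i. It was 2.14-fold lower in 2i than in 2i+LIF (log2 difference -1.09, SE 0.09, adjusted p = 0.00044) and 2.42-fold lower than in LIF+PD (adjusted p = 0.00017). The smaller difference between CH+LIF and 2i+LIF (-0.42, adjusted p = 0.015) was lost with TPM scaling (adjusted p = 0.19) and when any of the 4 cultures compared was left out. In 2i, 4 of the 5 expressed laminin chains were thus called against 2i+LIF, where 18.6% of all genes were called, and of these 3 were lower (8.86% of all genes) and Lamb1 was higher, and Lama5 missed the threshold (adjusted p = 0.061).

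**Figure D3:**
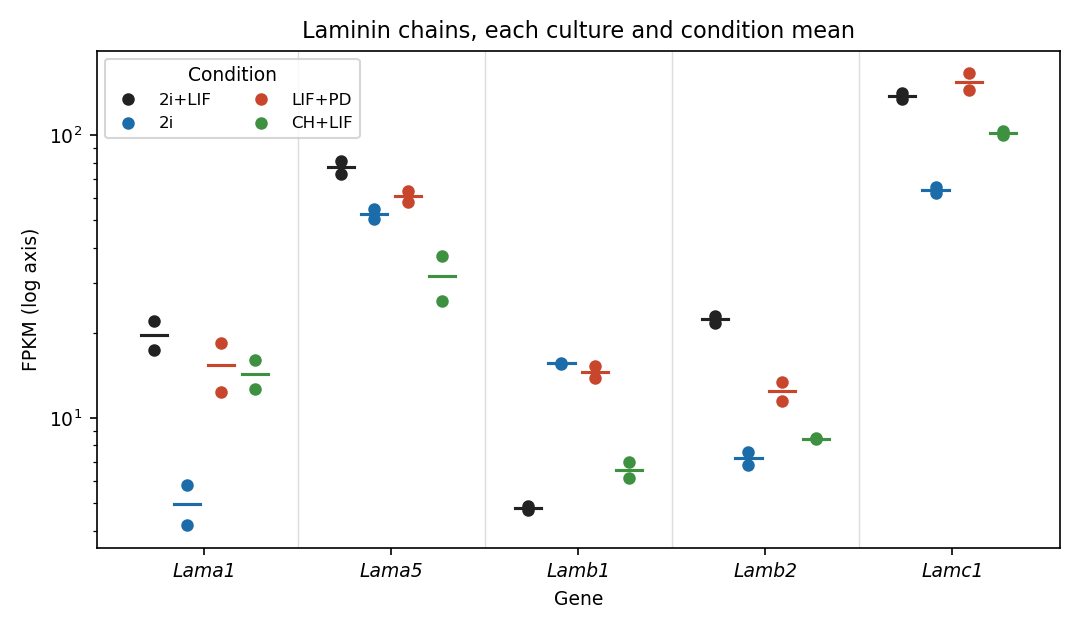
Each point is the FPKM (log axis) of 1 culture for the 5 expressed laminin chains, coloured by condition, and each short line is the mean of the 2 cultures. Lama1 and Lamc1 are lowest in 2i, and Lamb1 and Lamb2 are ordered in opposite ways between 2i+LIF and 2i.

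The integrin β subunits fell into a stable and several variable ones. Itgb1, the partner in most dimers, varied from 36.7 to 53.5 FPKM over all cultures. It measured 53.5 and 49.4 FPKM in 2i+LIF, 47.8 and 39.7 in 2i, 52.0 and 46.0 in CH+LIF, and 40.01 and 36.7 in LIF+PD. It was 1.34-fold lower in LIF+PD than in 2i+LIF with an adjusted p of 0.041, a call that was lost in 7 of 17 alternatives, and it passed in no other comparison. Itgb5, which pairs with αv in a vitronectin receptor, ranged more widely, with 26.3 and 29.6 FPKM in 2i+LIF, 22.3 and 19.8 in LIF+PD, 13.1 and 19.8 in 2i, and 7.26 and 9.62 in CH+LIF. The 2 cultures of CH+LIF were the lowest. Itgb5 was 3.31-fold lower in CH+LIF than in 2i+LIF (log2 difference -1.62, SE 0.20, adjusted p = 0.0025) and 2.49-fold lower than in LIF+PD (adjusted p = 0.0046). Its difference between 2i and 2i+LIF (-0.76, adjusted p = 0.043) was lost in 8 of 17 alternatives and ranged from -1.04 to -0.48 when single cultures were left out.

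Itgb3, the β subunit of αvβ3, was expressed only in LIF+PD by the filter used. It stood at 0.427 and 0.436 FPKM in 2i+LIF, 0.670 and 0.527 in 2i, 0.110 and 0.230 in CH+LIF, and 3.71 and 4.39 in LIF+PD. Itgb3 was 9.39-fold higher in LIF+PD than in 2i+LIF, given without a test since LIF+PD alone let it pass the filter. Itgb7, known from lymphocyte homing receptors, was the 1 member called higher in CH+LIF than in LIF+PD. It measured 7.49 and 7.21 FPKM in CH+LIF, 3.73 and 2.16 in LIF+PD, 1.59 and 1.57 in 2i, and 1.34 and 1.19 in 2i+LIF. The CH+LIF cultures were above all others. The difference from 2i+LIF was 5.83-fold (log2 difference 1.89, SE 0.20, adjusted p = 0.0015) and that from LIF+PD 2.50-fold (adjusted p = 0.0065). The call of Itgb7 in LIF+PD against 2i+LIF (0.77, adjusted p = 0.03) was lost in 7 of 17 alternatives, and the difference ranged from 0.48 without replicate 1 of LIF+PD to 1.07 without replicate 2. Itgb4, the partner of α6 in hemidesmosomes, had cultures of 1 condition as far apart as 1.34 and 3.52 FPKM in 2i+LIF, and it was called in no comparison.

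The α subunits that share the β1 partner had different patterns over the conditions. Itga6, the most abundant laminin receptor subunit, measured 29.7 and 33.0 FPKM in 2i+LIF, 37.4 and 40.1 in 2i, 47.0 and 50.5 in CH+LIF, and 67.6 and 64.0 in LIF+PD, and no conditions overlapped. It was 2.10-fold higher in LIF+PD (log2 difference 1.05, SE 0.09, adjusted p = 0.00046) and 1.56-fold higher in CH+LIF (adjusted p = 0.0041) than in 2i+LIF, whereas 2i did not pass (adjusted p = 0.061). Itga3, a second laminin receptor subunit, measured 2.90 and 2.42 FPKM in 2i+LIF, 2.04 and 2.45 in 2i, 4.17 and 5.05 in CH+LIF, and 8.62 and 7.10 in LIF+PD. Itga3 was 2.96-fold higher in LIF+PD than in 2i+LIF (adjusted p = 0.0019), and its 1.73-fold difference in CH+LIF (adjusted p = 0.032) was lost in 5 of 17 alternatives. Itga5, the fibronectin receptor subunit, stood at 6.05 and 5.15 FPKM in 2i+LIF, 3.97 and 4.29 in 2i, 11.7 and 13.3 in CH+LIF, and 10.8 and 11.2 in LIF+PD. Both conditions with a single inhibitor lay above both conditions with CH and PD. Itga5 was 2.23-fold higher in CH+LIF (adjusted p = 0.0021) and 1.97-fold higher in LIF+PD (adjusted p = 0.0032) than in 2i+LIF.

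Itgav, which recognises the RGD sequence of vitronectin and fibronectin, was lowest in CH+LIF. It measured 13.7 and 13.5 FPKM in 2i+LIF, 17.5 and 17.2 in 2i, 13.0 and 9.36 in LIF+PD, and 4.54 and 3.99 in CH+LIF. All other cultures were at 9.36 FPKM or above. Itgav was 3.20-fold lower in CH+LIF than in 2i+LIF (log2 difference -1.48, SE 0.15, adjusted p = 0.0013) and 4.07-fold lower than in 2i (adjusted p = 0.00048). Its difference between LIF+PD and 2i (-0.61, adjusted p = 0.027) was lost in 4 of 17 alternatives and ranged from -0.82 without replicate 1 of LIF+PD to -0.39 without replicate 2. Both subunits of αvβ5 were thus lowest in CH+LIF, and the ratio of Itga6 to Itgav was 10.3 and 12.7 there, 5.20 and 6.84 in LIF+PD, and 2.14 to 2.44 in 2i and 2i+LIF. Itga9, which binds osteopontin and tenascin, was lowest in 2i+LIF at 0.589 and 1.42 FPKM, and stood at 3.36 and 7.07 in 2i, 5.13 and 4.78 in LIF+PD, and 10.2 and 7.53 in CH+LIF. It was 8.80-fold higher in CH+LIF than in 2i+LIF (log2 difference 2.32, SE 0.33, adjusted p = 0.0037), and 15.05-fold higher without replicate 2 of 2i+LIF. The calls of Itga9 in 2i (adjusted p = 0.016) and LIF+PD (adjusted p = 0.013) were lost in 2 and 3 of 17 alternatives, in both cases without replicate 1 of 2i+LIF. Itgam, an α subunit of myeloid cells, was at 1.09 and 1.23 FPKM in 2i and at most 0.685 FPKM elsewhere.

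**Figure D4:**
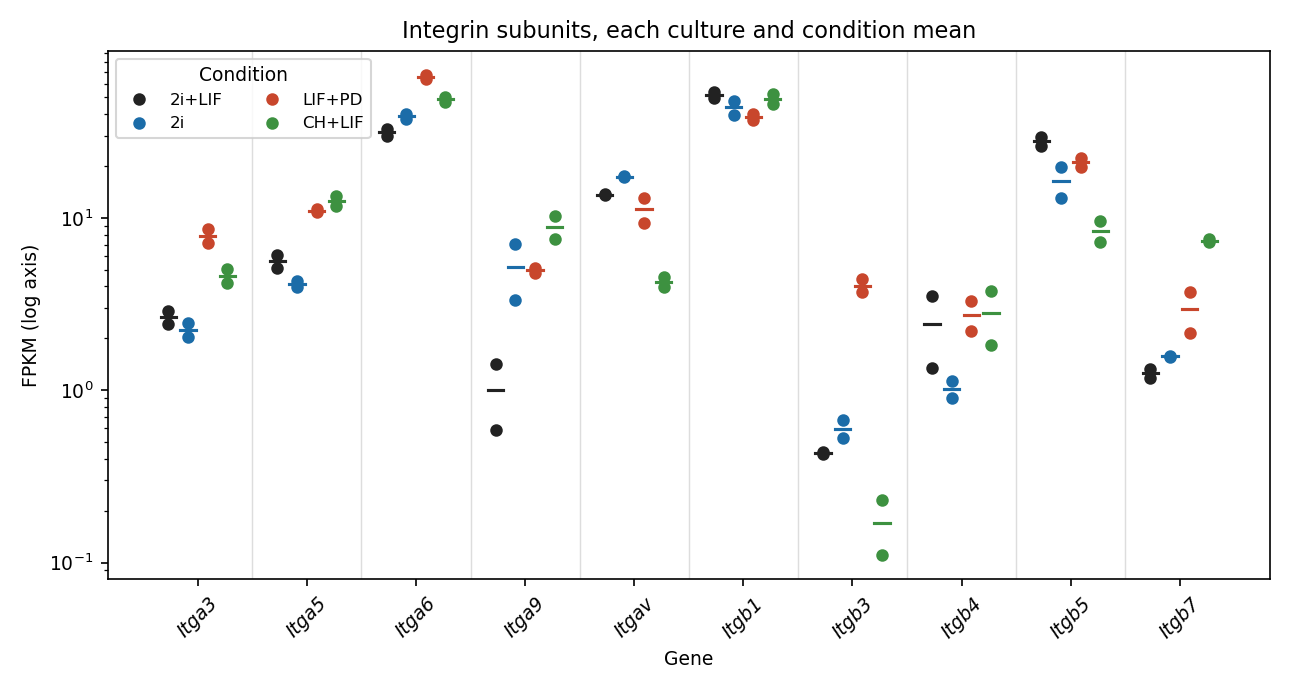
Each point is the FPKM (log axis) of 1 culture for 10 expressed integrin subunits, coloured by condition, with a short line at the mean of the 2 cultures. Itgb1 is nearly level, Itgav and Itgb5 are lowest in CH+LIF, and Itgb3 is above 1 only in LIF+PD.

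The collagens held the largest differences of the 3 families. Col4a1 (ENSMUSG00000031502) and Col4a2 (ENSMUSG00000031503) encode the chains of the type IV collagen found in most basement membranes. Col4a1 stood at 0.917 and 0.986 FPKM in 2i+LIF, 1.33 and 1.73 in 2i, 1.68 and 1.75 in CH+LIF, and 41.1 and 42.9 in LIF+PD. Col4a2 stood at 0.840 and 0.961 FPKM in 2i+LIF, 0.741 and 1.02 in 2i, 0.598 and 0.733 in CH+LIF, and 16.1 and 19.9 in LIF+PD. For both genes the LIF+PD cultures were far above the others, which were close to the limit of 1 FPKM. Col4a1 was 44.1-fold higher in LIF+PD than in 2i+LIF (log2 difference 4.46, SE 0.13, adjusted p = 8.8e-06), 27.4-fold higher than in 2i and 24.5-fold higher than in CH+LIF. Col4a2 was 19.9-fold higher in LIF+PD than in 2i+LIF, 20.4-fold higher than in 2i and 27.0-fold higher than in CH+LIF. No test of Col4a2 is given, since it would not have passed the filter without LIF+PD. The calls of Col4a1 in LIF+PD held in every alternative run. The small rise of Col4a1 in CH+LIF over 2i+LIF (0.48, adjusted p = 0.038) was lost in 9 of 17.

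A few markers of another cell type were also highest in LIF+PD. A list of 16 genes of primitive, parietal and visceral endoderm, cells that secrete much type IV collagen, summed to 23.6 and 26.4 FPKM in LIF+PD and to 2.55 to 7.65 FPKM in the other 6 cultures. Of the 16, 3 reached 1 FPKM in any culture. Srgn made up 18.4 and 19.0 FPKM of the LIF+PD sums and was at most 4.24 FPKM elsewhere. Gata4 was at 1.93 and 1.84 FPKM in LIF+PD and 0.725 to 1.41 elsewhere, and Dab2 at 1.08 and 1.93 FPKM in LIF+PD and at most 0.772 elsewhere. Foxa2 was highest in 2i, at 0.590 and 0.703 FPKM, against 0 and 0.302 in LIF+PD. The defining factors Gata6 and Sox17 were at most 0.227 and 0.205 FPKM in any culture, and Ttr was listed at 0. Their part in the result was not tested.

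Col18a1 (ENSMUSG00000001435) was the most abundant collagen in every culture. It measured 26.7 and 24.0 FPKM in 2i+LIF, 31.3 and 31.7 in CH+LIF, 95.0 and 85.3 in LIF+PD, and 124 and 134 in 2i. The conditions did not overlap. Col18a1 was 5.09-fold higher in 2i than in 2i+LIF (log2 difference 2.30, SE 0.09, adjusted p = 4.1e-05) and 3.56-fold higher in LIF+PD (1.79, SE 0.09, adjusted p = 7.7e-05), whereas CH+LIF did not pass (adjusted p = 0.051). It was also 4.10-fold lower in CH+LIF than in 2i (adjusted p = 5.2e-05). Col26a1 had the same 2 high conditions, with 9.69 and 7.54 FPKM in 2i, 7.18 and 13.4 in LIF+PD, 3.61 and 1.29 in 2i+LIF, and 2.04 and 0.895 in CH+LIF, but its replicates lay farther apart. It was 7.01-fold lower in CH+LIF than in LIF+PD (adjusted p = 0.0079), and 11.5-fold lower without replicate 1 of CH+LIF. The call in 2i against 2i+LIF (adjusted p = 0.041) was lost in 7 of 17 alternatives and that in LIF+PD against 2i+LIF (adjusted p = 0.023) in 3. Col9a2, a chain of the cartilage collagen IX, had 5.26 and 4.97 FPKM in LIF+PD, 4.49 and 2.06 in 2i, 1.51 and 0.742 in 2i+LIF, and 0.582 and 0.248 in CH+LIF, and was 12.3-fold lower in CH+LIF than in LIF+PD (adjusted p = 0.0027). Without replicate 1 of CH+LIF it was 20.6-fold lower.

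Among the fibrillar chains, those of type V collagen differed from each other. Col5a1 overlapped between LIF+PD and the other 2 conditions with PD, with 4.23 and 4.30 FPKM in 2i+LIF, 3.37 and 4.05 in 2i, and 4.35 and 3.60 in LIF+PD, and stood at 1.98 and 2.14 FPKM in CH+LIF. It was 2.07-fold lower in CH+LIF than in 2i+LIF (adjusted p = 0.0094), a call lost in 3 of 16 alternatives. Col5a3 (ENSMUSG00000004098) reached 2.61 and 3.07 FPKM in LIF+PD and was at most 0.0903 FPKM in the other 6 cultures. It too passed the filter through LIF+PD alone, and no test is given. Col11a1, which copolymerises with other fibrillar collagens, had 1.53 and 1.97 FPKM in 2i+LIF, 1.38 and 1.61 in LIF+PD, 0.835 and 0.542 in CH+LIF, and 0.453 and 0.660 in 2i. It was 3.15-fold lower in 2i than in 2i+LIF (adjusted p = 0.022), which was lost in 3 of 16 alternatives. Col1a1, the main chain of type I collagen, was at most 1.15 FPKM, and Col3a1 was listed at 0.

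**Figure D5:**
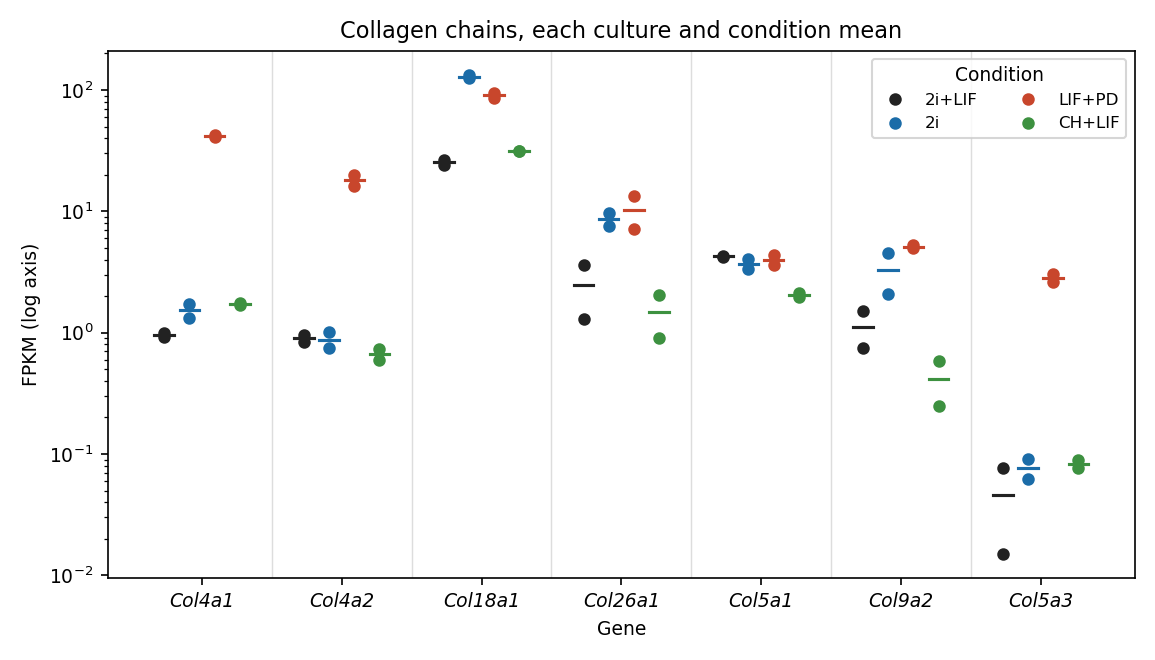
Each point is the FPKM (log axis) of 1 culture for 7 expressed collagen chains, coloured by condition, with a short line at the mean of the 2 cultures. Col4a1, Col4a2 and Col5a3 are high only in LIF+PD, and Col18a1 is high in 2i and LIF+PD.

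Other marker lists also differed between the conditions. Of 12 genes of mesoderm, mesenchyme and fibroblasts, 6 reached 1 FPKM, and their sum was 6.83 and 5.90 FPKM in 2i+LIF, 19.2 and 14.4 in 2i, 6.94 and 13.1 in LIF+PD, and 40.9 and 37.4 in CH+LIF. In CH+LIF, T, the mesoderm factor Brachyury, was at 36.4 and 18.5 FPKM. Postn, a matrix protein of fibroblasts, was at 14.1 FPKM in replicate 2 of CH+LIF and at most 0.0338 FPKM in the other 7 cultures. Acta2, the smooth muscle actin, was at 3.22 and 8.47 FPKM in LIF+PD and at most 0.117 FPKM elsewhere, and Prrx1, Lum and Dcn were listed at 0. Of 5 neural genes, 3 reached 1 FPKM, and their sum was 6.12 and 5.33 FPKM in 2i+LIF, 3.37 and 3.94 in CH+LIF, 10.7 and 12.5 in 2i, and 19.8 and 19.2 in LIF+PD. Pax6 and Nes carried most of it, with Pax6 at 7.81 and 9.20 FPKM in 2i and 11.3 and 10.7 in LIF+PD. Sox1 did not follow the sum, at 1.04 and 1.83 FPKM in CH+LIF and 0 and 0.0595 in 2i. The sum of 6 genes of the primed epiblast was 47.5 and 44.5 FPKM in 2i+LIF and 96.4 to 137 elsewhere, but its genes differed in pattern. Otx2 was at 2.44 and 1.80 FPKM in 2i+LIF, 50.3 and 49.2 in LIF+PD and 2.15 and 2.11 in CH+LIF. Lef1 was at 6.02 and 5.46 FPKM in 2i+LIF, 4.52 and 4.97 in LIF+PD and 31.3 and 17.9 in CH+LIF. The sum of 10 trophoblast genes was 15.1 to 41.3 FPKM over all cultures, with Tpbpa and Prl3d1 listed at 0. Among them, Cdx2 was at 10.2 and 7.91 FPKM in 2i+LIF and 0.0433 and 0.096 in LIF+PD. Gata3 was at 2.10 and 0.462 FPKM in 2i+LIF and 14.4 and 18.45 in LIF+PD. The sum of 7 blood and endothelial genes was 26.9 to 43.3 FPKM, with Hbb-bh1 listed at 0. Their part in the results was not tested.

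The genes that surround these families were taken from lists of basement membrane, interstitial matrix, collagen synthesis, adhesion, receptor and protease genes. Among the other basement membrane genes, 10 of 15 passed the filter. Of these, 3 were called in 2i against 2i+LIF (1 higher), 6 in LIF+PD (3 higher) and 6 in CH+LIF (1 higher). Of all tested genes, 18.6%, 25.2% and 25.4% were called in these 3 comparisons. Nid1, which links laminin to type IV collagen, measured 102 and 94.4 FPKM in 2i+LIF and 28.8 and 28.7 in 2i, and was 3.43-fold lower there (adjusted p = 5.3e-05). Sparc, a collagen-binding glycoprotein, was 1.68-fold higher in LIF+PD than in 2i+LIF (adjusted p = 0.0069), and Npnt, a ligand of integrin α8β1, was 4.62-fold higher (adjusted p = 0.0031). Ntn1, a secreted relative of the laminin γ chains, stood at 0.979 and 0.983 FPKM in LIF+PD against 38.0 and 34.7 in 2i+LIF, 37.1-fold lower (adjusted p = 8.4e-06).

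Ligands of the expressed integrins were also measured. Of 28 interstitial matrix genes, 8 passed the filter, and 1 was called in 2i, 4 in LIF+PD (1 higher) and 3 in CH+LIF (0 higher) against 2i+LIF (all genes 18.6%, 25.2% and 25.4%). Fn1, the fibronectin bound by α5β1, stood at 197 and 220 FPKM in 2i+LIF, 223 and 260 in 2i, 119 and 136 in CH+LIF, and 136 and 123 in LIF+PD. It was 1.64-fold lower in CH+LIF (adjusted p = 0.0059) and 1.61-fold lower in LIF+PD (adjusted p = 0.0061), the 2 conditions in which Itga5 was higher. Spp1, the osteopontin bound by αv integrins and α9β1, was highest in 2i+LIF at 501 and 463 FPKM and 2.34-fold lower in 2i (adjusted p = 0.0003).

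Of 18 tested genes for collagen synthesis (29 of the list were in the files), 6 were called in 2i (2 higher), 5 in LIF+PD (2 higher) and 10 in CH+LIF (2 higher) against 2i+LIF (all genes 18.6%, 25.2% and 25.4%). P4ha1, a subunit of the prolyl hydroxylase of collagens, was 3.56-fold lower in CH+LIF (adjusted p = 0.0024). Serpinh1, the collagen chaperone HSP47, rose 2.80-fold in 2i (adjusted p = 0.0014). It did not pass in LIF+PD, where it measured 10.3 and 11.3 FPKM against 10.9 and 9.20 in 2i+LIF. Pcolce, which enhances the cleavage of fibrillar procollagens, was at 11.7 and 11.3 FPKM in 2i against 108 and 118 in 2i+LIF, 9.82-fold lower (adjusted p = 1.0e-05).

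Of 25 tested genes that couple integrins to the cytoskeleton, 12 were called in 2i (6 higher), 12 in LIF+PD (10 higher) and 13 in CH+LIF (8 higher) against 2i+LIF (all genes 18.6%, 25.2% and 25.4%). Fermt3, a kindlin that activates integrins, was 5.81-fold higher in LIF+PD (adjusted p = 0.00056). Parvb, which binds integrin-linked kinase, was at 3.84 and 4.19 FPKM in 2i, 21.9 and 23.2 in 2i+LIF, 17.2 and 23.5 in LIF+PD, and 50.3 and 71.1 in CH+LIF. It was 5.63-fold lower in 2i (adjusted p = 0.00057) and 2.69-fold higher in CH+LIF (adjusted p = 0.0037).

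Among 15 tested matrix receptors other than integrins, 5 were called in 2i (2 higher), 6 in LIF+PD (5 higher) and 9 in CH+LIF (3 higher) against 2i+LIF (all genes 18.6%, 25.2% and 25.4%). The collagen receptor kinase Ddr1 was 2.85-fold higher in LIF+PD (adjusted p = 0.0034), the condition in which type IV collagen was high. Its relative Ddr2 stood at 3.82 and 3.69 FPKM in LIF+PD and at most 0.496 FPKM elsewhere, so that it passed the filter through LIF+PD alone, the 1 gene of these lists to do so, and no test of it is given. Bcam, a receptor of the laminin α5 chain, was at 104 and 131 FPKM in CH+LIF, where Lama5 was lowest, and 2.34-fold higher than in 2i+LIF (adjusted p = 0.0056). Of 14 tested matrix proteases and their inhibitors, 5 were called in 2i (3 higher), 5 in LIF+PD (3 higher) and 9 in CH+LIF (2 higher), beside the same shares of all genes. Timp3, an inhibitor of metalloproteases, was 9.51-fold higher in LIF+PD (adjusted p = 0.00055). Each of these lists can be read against the shares of all genes given with the member counts, and no list was tested as a set.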

How the data were processed

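RNA of 8 cultures in 4 conditions was measured. The authors aligned single-end reads to mm10 (GRCm38) with Ensembl 75 annotation and deposited FPKM for each gene in each culture. Bounds accompany each value, and their level is not given in the sources used here. The submitters' processing notes name TopHat2, Cufflinks and Cuffdiff, and the counting setting for strand behind the FPKM is not given in the sources used here. The methods speak of rRNA depletion, and the labels of polyA RNA. FPKM depend on the authors' transcript lengths and library totals, so a few abundant genes can shift all others, and read numbers are not part of the values. No interval for counting error is therefore given. Reads of overlapping or near-identical genes could not be separated here.

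Files were joined by Ensembl identifier, and 22 repeated identifiers were summed. Values were tested as log2(FPKM + 1) with limma 3.58.1 in R 4.3.3 (mean-variance trend, 1 fit of all 8 cultures, 4 residual degrees of freedom, 3.12 prior degrees of freedom) on the 12927 genes that reached an FPKM of 1 in 2 or more cultures, and p-values were adjusted by Benjamini-Hochberg over all of them. The procedure was tested on simulated data. Figures were drawn with matplotlib 3.10.9, and tables were made with pandas 2.3.3 and numpy 2.4.6 under Python 3.11.15. Deposited start positions count from 0 and were raised by 1. Promoter windows are those of RefSeq, build GRCm38.p6.

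The rule matched 81 genes, of which 1 is not reported here, and all counts are over the other 80. The members and all lists were chosen with earlier results of these data known. Members named are 11 core chains, the 10 with the highest mean, the expressed members of complete integrin or laminin complexes, and per comparison up to 8 called higher and 8 called lower with a mean FPKM of at least 1 in 1 condition and no overlap. List genes named follow the last rule with up to 3 per list. Col1a1, Col3a1, Itgal, Itga1 and the partners that were not expressed are named to account for all members. Alternatives were other pseudocounts, filters and scalings, no trend, a replicate block and leaving out each culture.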

Additional observations from a re-analysis of the deposited data

How the results depend on the processing

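Of 84 calls of a member in a comparison, 53 held in every alternative that could be run, 31 were lost in at least 1, and 0 reversed. The 53 include the calls of Col4a2, Col5a3 and Itgb3 in LIF+PD, and the 31 include those of Itgam in 2i. These genes needed those conditions to pass the filter, so that holding or losing their calls carries no weight. The counts of calls that follow include them wherever they passed the filter. The number of expressed members was 17 at an FPKM of at least 5 and 14 at an FPKM of at least 1 in all 8 cultures, where 5 integrin dimers were complete. At an FPKM of at least 0.5 in 2 or more cultures it was 39, with 10 integrin dimers and 6 laminin trimers complete. That limit let Itga1 pass, at 0.555 and 1.24 FPKM in 2i, and Lama4, at 0.753 and 0.645 FPKM in LIF+PD. Leaving out single cultures changed the number of members called in 2i against 2i+LIF to between 6 and 11, the 6 being reached without either replicate of 2i+LIF or replicate 1 of 2i, and the share of all genes called to between 8.99% and 16.8%. The range was 9 to 15 in LIF+PD against 2i+LIF, with 9 without either replicate of LIF+PD (all genes 13.1% to 26.4%). It was 8 to 13 in CH+LIF against 2i+LIF, with 8 without either replicate of 2i+LIF or replicate 1 of CH+LIF and 9 without replicate 2 (all genes 11.8% to 26.4%). The range was 9 to 14 in LIF+PD against 2i, with 9 without replicate 2 of LIF+PD (all genes 14.8% to 23.3%), and 9 to 14 in CH+LIF against 2i, with 9 without replicate 2 of CH+LIF (all genes 11.5% to 21.5%). CH+LIF against LIF+PD, the F test and the counts of complete laminin trimers stayed within 1.5 times. A culture left alone in its condition was assumed to vary like the others. In TPM, with the filter applied at that scale, the median difference of all genes was higher by 0.175 in CH+LIF and 0.122 in LIF+PD against 2i+LIF and by 0.119 in CH+LIF against 2i. Over all tested genes, the deviations of same-numbered replicates had correlations from -0.0283 to 0.0925. These cannot show whether replicates of 1 number were handled together, since noise in weakly expressed genes can hide a shared part. With a replicate block, 11, 15 and 13 members were called in 2i, LIF+PD and CH+LIF against 2i+LIF (all genes 19.7%, 26.8% and 27.2%), 14, 14 and 18 in the other 3 comparisons (26.8%, 25.8% and 31.8%) and 23 by the F test (48.5%), and of the calls made without the block that of Lamb1 in CH+LIF against 2i+LIF was lost. Read numbers are unknown, so the depth behind values under an FPKM of 1 cannot be stated, and of the 52 members under the filter, those not at 0 in every culture entered the fit without it, and 34 members in all entered that in TPM.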
